A study of Homo sapiens with 4 samples.

Results

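The retinoic acid receptors and retinoid binding proteins were represented by 10 genes, chosen by name from 60671 in the count table: the carriers CRABP1 and CRABP2, the receptors RARA, RARB, RARG, RXRA, RXRB and RXRG, and the enzymes DHRS3 and CYP26B1. They were followed in SK-N-BE(2), an established human neuroblastoma (NB) line with amplified MYCN, in which METTL14 had been knocked down. METTL14 is a subunit of the writer complex that places N6-methyladenosine (m6A) on mRNA. All 4 RNA-seq libraries came from cells carrying a short hairpin RNA: 2 libraries carried the control hairpin (shNC) and 2 a hairpin against METTL14 (shMETTL14). The study's methods describe hairpins delivered in the lentiviral pLKO.1 vector, 2 of them against METTL14. Whether the 2 shMETTL14 libraries carried the same hairpin is not given. The labels give neither the hairpin sequence used, nor a time point, nor any retinoid treatment, so every value is from a single line with no retinoid named. They also do not say whether the libraries of a group came from separate cultures, so p-values measure only the spread between these libraries, which may be technical.

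Retinoic acid is made from retinol in 2 oxidation steps and acts in the nucleus on pairs of a retinoic acid receptor (RAR) and a retinoid X receptor (RXR), which sit on repeated DNA half-sites and recruit corepressors without ligand and coactivators with it. CRABP2 is known to hand retinoic acid to RARs, CRABP1 is mostly described as a cytoplasmic binder that sequesters it or passes it on, CYP26 enzymes degrade it, and DHRS3 reduces retinal back to retinol. In NB cells retinoic acid is a classic inducer of neuronal differentiation, and isotretinoin is given as maintenance therapy for high-risk disease.

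RARB is itself a textbook target of retinoic acid through a direct repeat in its promoter, and that repeat is shown because RARB is the only member with such a site in the windows searched. The windows were RefSeq promoters on GRCh38.p14, from 250 bases before to 50 bases after each annotated start, and all 10 members had at least 1, giving 19 windows. The letters searched on both strands were the half-site AGGTCA, its variant with the letters AGTTCA, and the same pair beginning with G, spelled GGGTCA or else spelled GGTTCA, in direct repeats spaced by 1, 2 or 5 bases. In the RARB stretch at chr3:25428204-25428232, plus strand, the capitals mark the half-sites, which lie in the same orientation as the gene, spaced by 5 bases and between 53 and 37 bases before the start. The second line gives, from the plus strand of chromosome 10 (93073803 to 93073819), the repeat of the same spacing found for CYP26A1, the retinoic acid hydroxylase that is not a member but belongs to the same degradation step as CYP26B1. Its half-sites read in the opposite orientation to the gene.
RARB: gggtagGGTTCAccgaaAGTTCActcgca
CYP26A1: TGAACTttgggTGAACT
Of 35116 promoter windows of this length, 31 (0.0883%) held a repeat spaced by 5 bases and 91 (0.259%) one of any of the 3 spacings, whereas 38.6% held at least 1 half-site. Among the 19 windows of the members, 9 held a half-site and 1 held a direct repeat. RARB also had windows at other annotated starts, which held no such repeat. The counts are per gene, so they do not separate RARB transcripts by start. These matches describe letters in the reference and carry no measurement of binding.

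The libraries were alike in depth, with between 18925786 and 19886214 counts in genes. METTL14 (ENSG00000145388; chromosome 4, 118685368 to 118715433, GRCh38) was counted 753 and 754 times in shNC and 303 and 321 times in shMETTL14. The knockdown left 41.7% of the control level (log2 fold change -1.26 with SE 0.0832, adjusted p 3.6e-11 by edgeR's quasi-likelihood test), in the direction of the labels. All 8 noradrenergic NB markers were present, the lowest at 77.0 counts scaled to library size as CPM, and their summed level was 4809 and 4764 CPM in shNC and 4963 and 5014 CPM in shMETTL14. All 8 were called (52.5% of all genes tested were), 2 higher and 6 lower, although their sum was slightly higher in shMETTL14. Of the 6 mesenchymal markers PRRX1 had no more than 3 counts in any library, and their sums, between 2448 and 2566 CPM, overlapped between groups, while 2 of them were called higher and 2 lower. The part of these marker changes in the results was not tested. Markers of other cells were near absent: summed Schwann markers lay between 3.37 and 5.06 CPM with SOX10 at 0, blood and endothelial markers between 1.84 and 2.45 CPM with CD3E, CD68 and PECAM1 at 3 counts or fewer, and epithelial markers between 2.91 and 6.06 CPM with CDH1 at 3 counts or fewer. The summed Schwann and epithelial markers were both lower in shMETTL14, and their part was not tested either.

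METTL14 knockdown was accompanied by opposite changes of the 2 retinoid carriers and of 3 of the 5 tested receptors. Both CRABP genes rose, CRABP1 to 301% and CRABP2 to 144% of the shNC level, while RXRA fell to 55.7%, RXRB to 80.4% and RARB to 76.2%. RARA rose to 120%. RARG and DHRS3 did not pass the test, and RXRG and CYP26B1 were not detected above 3 counts. Of the 8 members with enough counts to test, 6 were called at an adjusted p under 0.05, 3 higher and 3 lower. Over all 16309 genes tested, 52.5% were called, 27.2% higher and 25.3% lower, so calls were frequent among all genes too. A call with a change of at least 2-fold was made for 1 member, CRABP1, against 8.79% of all genes tested. The groups did not overlap in CPM for any of the 8 tested members, which was also so for 75.5% of all genes tested. Their median absolute log2 fold change was 0.46 against 0.30 over all genes tested.

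**Figure D1:**
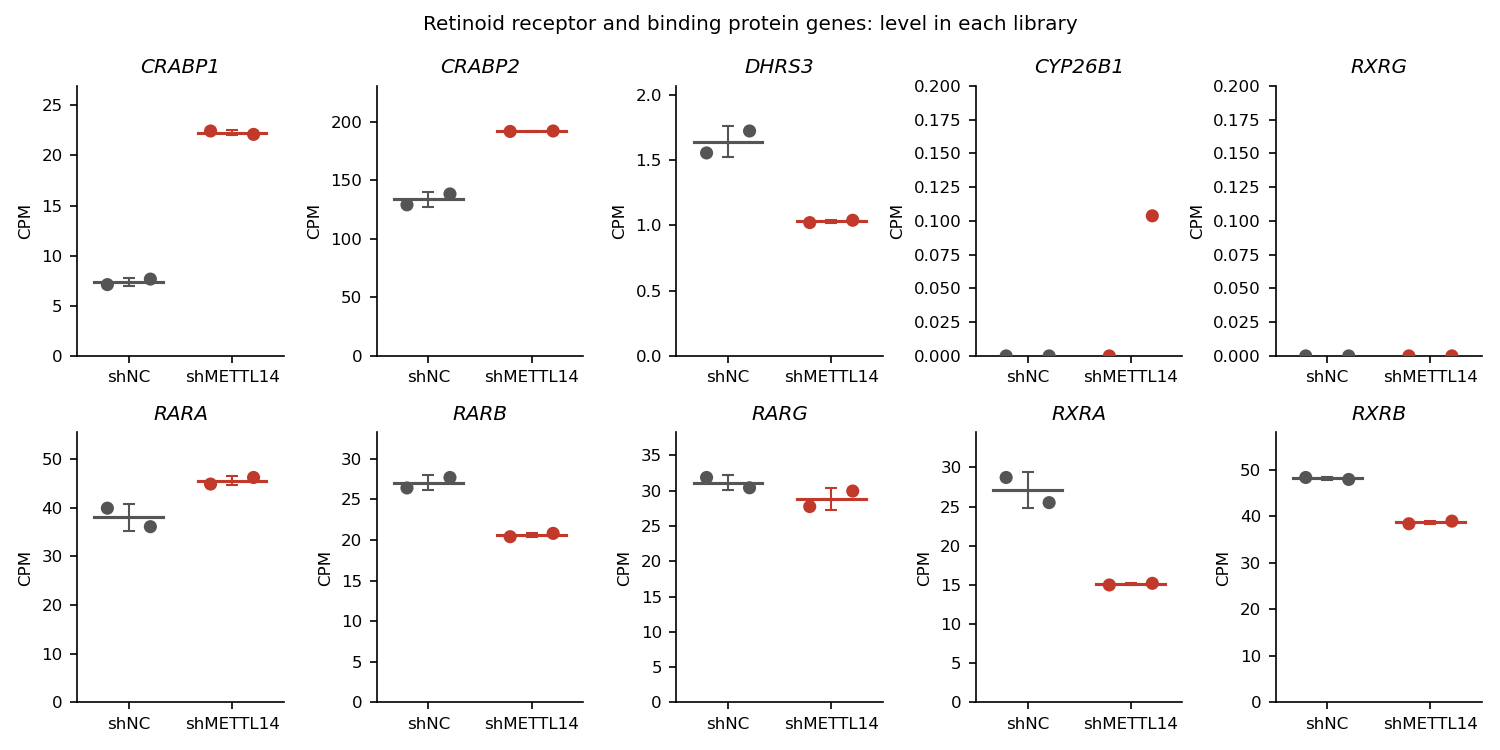
Level of each of the 10 genes in CPM (vertical axes, linear and starting at 0) in the 2 shNC libraries (grey) and the 2 shMETTL14 libraries (red). Points are libraries, horizontal lines the group means and bars the SD, drawn for the 8 tested genes: CRABP1, CRABP2 and RARA are higher in shMETTL14, the other 5 tested genes lower, and RXRG and CYP26B1 lie at or near 0.

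CRABP1 (ENSG00000166426; chromosome 15, 78340324 to 78348230, plus strand) showed the largest change among the members. It had 142 and 147 counts in the shNC libraries and 440 and 426 in the shMETTL14 libraries. Normalised to library size, the shNC mean was 7.39 ± 0.39 CPM and the shMETTL14 mean 22.3 ± 0.238 CPM (SD, n = 2 each), and both shMETTL14 libraries stood far above both controls. The log2 fold change was 1.59 (SE 0.107, adjusted p 5.4e-11 by edgeR), and 0.975% of all genes tested had a higher one. In bulk RNA, more cells expressing the gene and more RNA per expressing cell cannot be told apart. An unclassified annotated gene on the opposite strand, AC011270.2, covers 469 of CRABP1's 993 exon bases. It held 0, 0, 2 and 4 counts. The strand setting of the counting is not given in the sources used here, so how reads from the shared bases were assigned is not known.

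CRABP2 (ENSG00000143320; chromosome 1, 156699606 to 156705816, minus strand), the carrier that delivers retinoic acid to RARs, was the most abundant of the 10 genes. Its counts were 2577 and 2654 in shNC and 3761 and 3704 in shMETTL14, or 129 and 138 CPM against 192 CPM in each knockdown library. The groups were again fully separated (log2 fold change 0.52 with SE 0.0441, adjusted p 2e-09 by edgeR). The rise was smaller than that of CRABP1 in proportion and larger in amount. Summed over both genes, CRABP RNA went from 136 and 146 CPM to 214 CPM in each shMETTL14 library, or 152% of the control mean. The make-up of this pool also differed between the groups: there were 5.51 and 5.54 CRABP1 counts for every 100 of CRABP2 in shNC, and 11.7 and 11.5 in shMETTL14. Its exact permutation p was 0.333, two-sided, the smallest that 2 libraries per group allow, and the same p applies to every other sum or ratio given here whose groups do not overlap.

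Among the RARs, which bind all-trans retinoic acid, RARA and RARB were called in opposite directions and RARG was not called. RARA (ENSG00000131759; chromosome 17, 40309192 to 40357643, plus strand) is the subtype known for its fusion with PML in promyelocytic leukaemia. It had 796 and 692 counts in shNC and 879 and 890 in shMETTL14, or 39.9 and 36.1 CPM against 44.8 and 46.2 CPM. The shNC libraries differed from each other by more than the knockdown libraries did, but the groups did not overlap, and the log2 fold change was 0.26 (SE 0.0693, adjusted p 0.00331 by edgeR). This was the weakest of the 6 calls, with adjusted p-values up to 0.044 under the alternatives tried. RARA shares 847 of its exon bases with 2 genes on the opposite strand, of which RARA-AS1 had 15 and 13 counts in shNC and 28 and 25 in shMETTL14. Without a known strand setting, it is not known how reads from the bases that RARA and RARA-AS1 share were assigned.

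RARB (ENSG00000077092; chromosome 3, 25174332 to 25597932, plus strand), the member with the promoter repeat shown above, moved the other way. Counts were 527 and 531 in shNC and 400 and 401 in shMETTL14, which is 27.0 ± 0.911 CPM against 20.6 ± 0.287 CPM (SD, n = 2 each). Replicates lay close together and the groups were well apart (log2 fold change -0.39 with SE 0.0836, adjusted p 0.00045 by edgeR). RARG (ENSG00000172819; chromosome 12, 53210567 to 53232980, minus strand), a subtype best known from skin, had 636 and 583 counts in shNC and 544 and 577 in shMETTL14. Its log2 fold change of -0.11 (SE 0.0782) did not pass the test (adjusted p 0.245 by edgeR), and the 95% interval ran from -0.26 to 0.04.

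The changes of RARA and RARB nearly offset each other. Summed over RARA, RARB and RARG, RAR RNA was 98.1 and 94.2 CPM in shNC and 93.0 and 96.9 CPM in shMETTL14, so the groups overlapped (exact permutation p 0.667, two-sided). Its composition was what differed. For every 100 RARB counts there were 151 and 130 RARA counts in the shNC libraries and 220 and 222 in the shMETTL14 libraries. Per kilobase of merged exons, RARA made up 38.7% and 36.2% of RAR RNA in shNC and 46.4% and 46.0% in shMETTL14. RARB went from 32.8% and 35.6% to 27.0% and 26.5% of the same sum.

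RXRs are the shared partners that RARs, the vitamin D receptor, PPARs and several other nuclear receptors need to bind DNA. RXRA (ENSG00000186350; chromosome 9, 134317098 to 134440585, plus strand) had the strongest decrease among the members. It fell from 573 and 489 counts in shNC to 294 and 293 in shMETTL14, or from 27.1 ± 2.27 CPM to 15.1 ± 0.147 CPM (SD, n = 2 each). The shNC libraries differed from each other by more than the knockdown libraries did, yet both stood far above them. The log2 fold change was -0.84 (SE 0.0923, adjusted p 9.7e-08 by edgeR), and 8.92% of all genes tested had a lower one.

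RXRB (ENSG00000204231; chromosome 6, 33193588 to 33200688, minus strand) had 965 and 919 counts in shNC and 753 and 751 in shMETTL14. These are 48.1 ± 0.299 CPM and 38.7 ± 0.398 CPM (SD, n = 2 each), a difference many times the replicate spread. The log2 fold change was -0.32 (SE 0.0644, adjusted p 0.00029 by edgeR). Its neighbour on the opposite strand, the zinc transporter gene SLC39A7, shares 244 exon bases with it and rose (log2 fold change 0.42, adjusted p 1.6e-07 by edgeR). RXRG (ENSG00000143171; chromosome 1, 165400917 to 165445355, minus strand) had 0 counts in all 4 libraries, where 3 counts correspond to between 0.150 and 0.156 CPM.

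With both detected RXRs lower, the balance between the receptor families differed between the groups. Summed RXR RNA was 77.1 and 73.4 CPM in shNC and 53.4 and 54.2 CPM in shMETTL14, or 71.5% of the control mean. There were 78.5 and 78.0 RXR counts for every 100 RAR counts in the shNC libraries, and 57.4 and 55.9 in the shMETTL14 libraries. Within the RXR pair, RXRA counts per 100 RXRB counts were 59.4 and 53.2 in shNC and 39.0 in each shMETTL14 library. These ratios are taken within a library and so do not depend on how libraries were scaled.

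**Figure D2:**
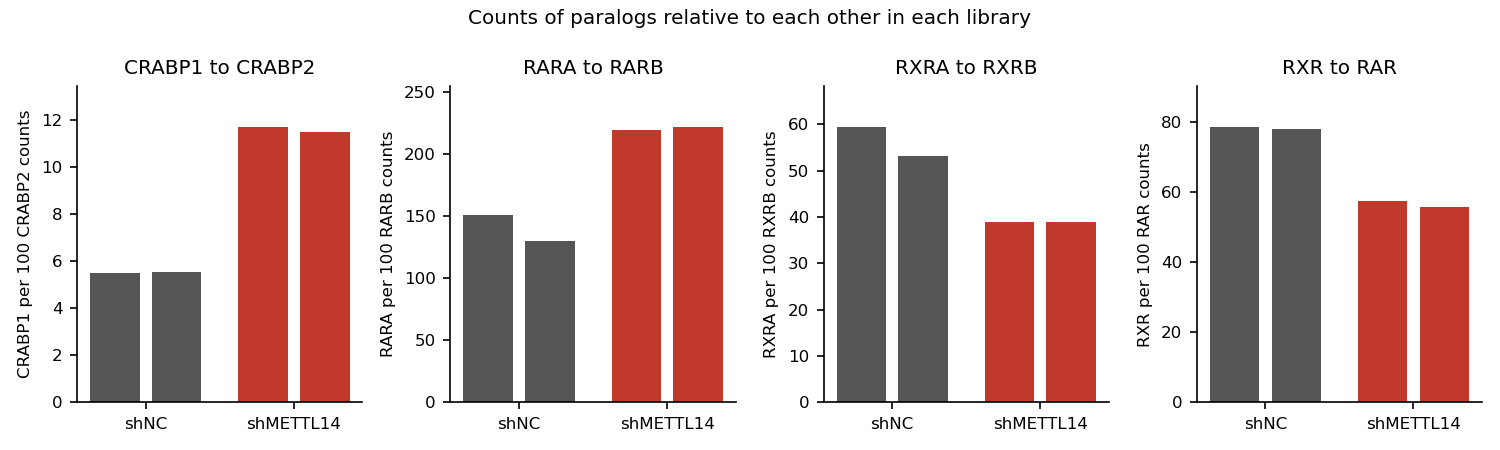
Counts of one gene or gene sum for every 100 counts of another (vertical axes, starting at 0) in each shNC library (grey bars) and each shMETTL14 library (red bars). CRABP1 to CRABP2 and RARA to RARB are higher in both shMETTL14 libraries, while RXRA to RXRB and summed RXR to summed RAR are lower in both.

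The 2 metabolic enzymes were scarce. DHRS3 (ENSG00000162496; chromosome 1, 12567910 to 12617731, minus strand), which lowers the supply of retinal for retinoic acid synthesis, had 31 and 33 counts in shNC and 20 in each shMETTL14 library. The groups did not overlap, but the log2 fold change of -0.67 (SE 0.349) did not pass the test (adjusted p 0.116, unadjusted p 0.07, by edgeR). The 95% interval ran from -1.35 to 0.02. CYP26B1 (ENSG00000003137; chromosome 2, 72129238 to 72148038, minus strand), a retinoic acid hydroxylase, had 0, 0, 0 and 2 counts and was below the floor of 3 counts in every library.

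**Figure D3:**
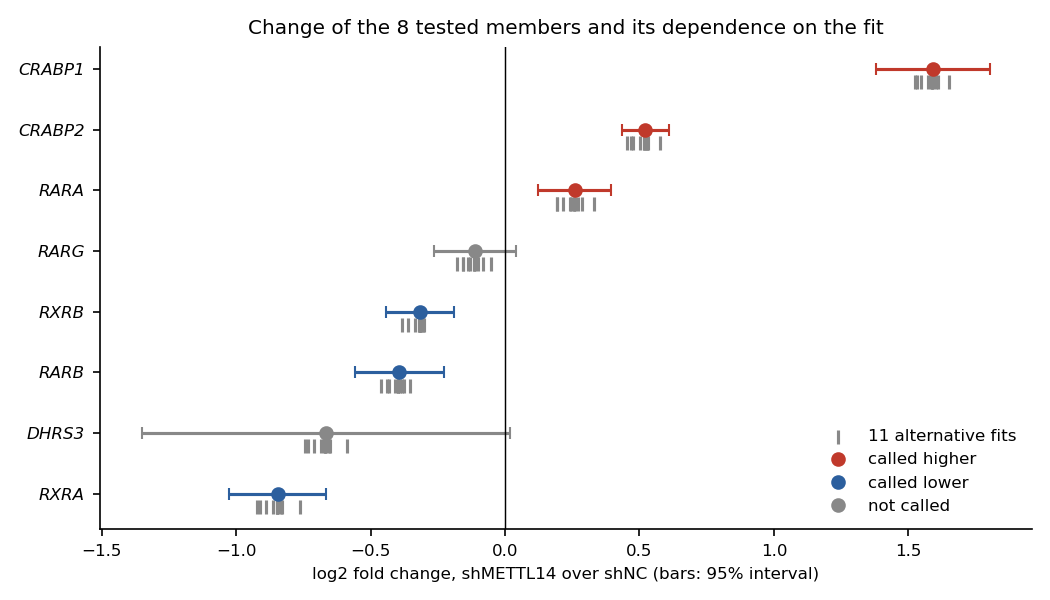
The log2 fold change of shMETTL14 over shNC for the 8 tested genes (points; bars are 95% intervals), coloured red where called higher, blue where called lower and grey where not called. Grey ticks below each point are the 11 alternative fits, all of which lie on the same side of 0 as the point.

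Levels were compared between genes per length, as CPM per kilobase of merged exons. In shNC the order was CRABP2 at 122 ± 5.97, RXRB at 12.3 ± 0.0762, RARA at 8.03 ± 0.567, CRABP1 at 7.44 ± 0.393, RARB at 7.32 ± 0.246, RARG at 6.07 ± 0.202, RXRA at 2.45 ± 0.205 and DHRS3 at 0.539 ± 0.0391 CPM per kilobase (SD, n = 2 each). CRABP1 overlapped between libraries with both RARA and RARB, while both RARA libraries lay above both RARB libraries. In shMETTL14, CRABP1 stood second at 22.4 CPM per kilobase, above RXRB at 9.87, RARA at 9.62, RARG at 5.62 and RARB at 5.57. RARG and RARB overlapped there. The place of RXRA rests on the length used: its merged exons span 11083 bases and its longest coding transcript 1846 bases, which give 2.45 and 14.7 CPM per kilobase in shNC, and ranks of 7 and 3. By the second length, chosen after the values were seen, RXRA made up 47.0% of RXR RNA in shNC, against 16.6% by merged exons.

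**Figure D4:**
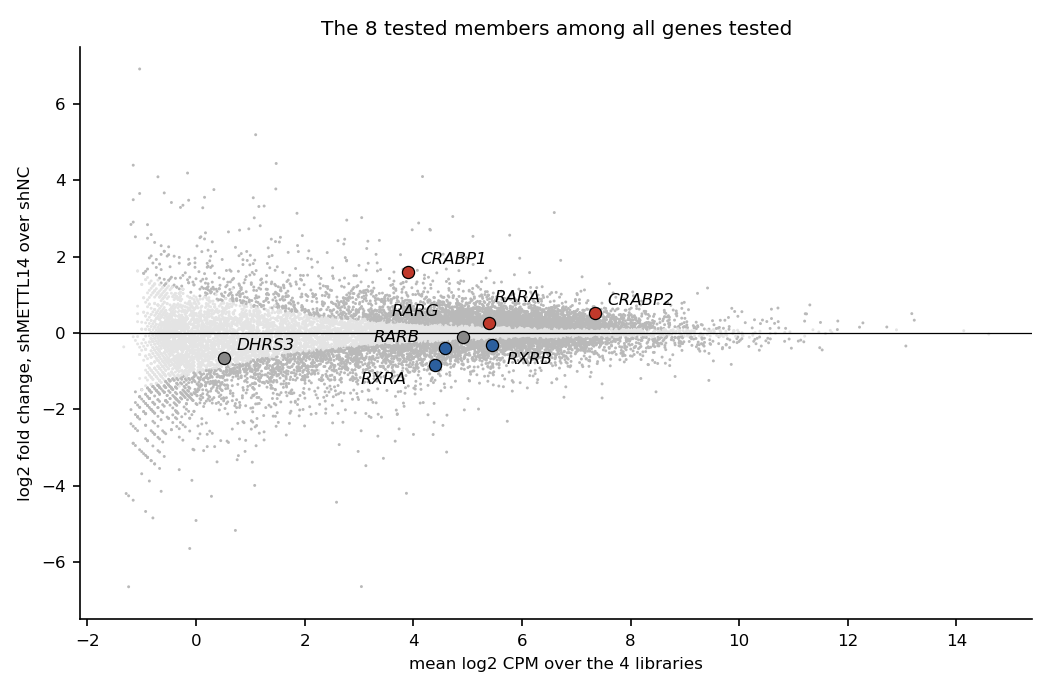
Each point is 1 of the 16309 genes tested, by mean log2 CPM over the 4 libraries (horizontal axis) and log2 fold change of shMETTL14 over shNC (vertical axis), darker grey where called. The 8 tested members are marked in red (called higher), blue (called lower) or grey (not called): CRABP1 lies above most genes of its level, RXRA below most and RARG near 0.

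m6A is placed mostly on adenosines in a longer consensus whose commonest core is GGAC, so the number of GGAC words was counted in the longest coding transcript of each gene in GENCODE 29, without any measure of methylation. RARA had 10.5 and RXRA 9.21 GGAC words per kilobase, more than 99.3% and 97.9% of the 12783 protein-coding genes tested, for which the median was 3.69. On the transcripts used, the genes with the densest GGAC words thus included 1 that rose and 1 that fell. For RXRA that transcript has 1846 bases while its merged exons span 11083 bases, so much of its exon sequence was not searched. CRABP1 had 7.77 words per kilobase, on a transcript of 772 bases with 6 words, CRABP2 3.87, RXRB 6.19, RARG 5.07 and RARB 4.86. All 10 members were above that median.

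The rest of the pathway was followed in 61 other genes, of which 38 were tested and 26 called, 14 higher and 12 lower. Their called share was 68.4% (all genes tested, 52.5%), and their median log2 fold change was 0.07 (all genes tested, 0.00). The split depends on the scaling of libraries, since upper quartile scaling gave 8 higher and 14 lower and library size alone 9 higher and 13 lower. Over all genes tested, the share of higher calls went from 51.8% to 41.7% with upper quartile scaling. The 6 calls among the members kept their directions under every scaling.

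Among genes that bring retinol into the cell and oxidise it, STRA6 and RDH10 were higher. STRA6, the membrane receptor that takes up retinol from its serum carrier, had 1728 and 1671 counts in shNC and 2511 and 2635 in shMETTL14 (log2 fold change 0.61, SE 0.0473, adjusted p 5.1e-10 by edgeR). The serum carriers RBP4 and TTR had 2 counts or fewer in every library. Of 16 genes for oxidation or reduction of retinol and retinal, 8 were tested and 3 were called (37.5%, against 52.5% of all genes tested). All 3 were higher, although upper quartile scaling gave 1 higher and 1 lower and library size alone 2 higher and 1 lower. RDH10, the dehydrogenase that carries out the first oxidation in embryos, rose from 149 and 148 counts to 307 and 282 (log2 fold change 1.00, SE 0.118, adjusted p 2.9e-07 by edgeR).

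The other calls in that group were DHRS4 (log2 fold change 0.34, adjusted p 0.0296 by edgeR) and ADH5 (0.15, adjusted p 0.00668). DHRS4 lost its call in 4 of 11 alternative fits: without shNC replicate 2, where its log2 fold change was 0.10, under DESeq2 (0.33), when libraries were scaled by the upper quartile (0.27) and when no scaling factor was used (0.29). ADH5 lost its call in 3 of 11, without shNC replicate 1 (log2 fold change 0.10), without shMETTL14 replicate 2 (0.12) and with upper quartile scaling (0.09). For the second oxidation, ALDH1A1 had no more than 1 count in any library. ALDH1A3, named outside the rule for named genes and after its values were seen, had 54 and 43 counts in shNC and 69 and 70 in shMETTL14 and was not called (adjusted p 0.062 by edgeR). FABP5, the fatty acid binding protein that can carry retinoic acid to PPARD, was higher (log2 fold change 0.25, adjusted p 7.1e-05 by edgeR). CYP26A1, whose promoter repeat is printed above, had 0 counts in every library, and CYP26C1 had 0, 2, 2 and 0. None of the 3 CYP26 genes was therefore above the floor of 3 counts.

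Among corepressors and coactivators of nuclear receptors, most of the called genes were lower. Of 18 genes 17 were tested and 11 called, 3 higher and 8 lower, with a median log2 fold change of -0.07. The called share was 64.7%, against 52.5% over all genes tested (27.2% higher and 25.3% lower). Under upper quartile scaling the split was 0 higher and 9 lower, and DESeq2 called 6, all lower. ZNF423, a zinc finger cofactor of RARs that has been linked to retinoic acid response in NB, fell from 855 and 810 counts to 477 and 539 (log2 fold change -0.70, SE 0.0786, adjusted p 1.4e-07 by edgeR). TRIM24, a cofactor that binds liganded RARA, fell by 0.39 on the log2 scale (adjusted p 4.2e-08). The coactivator NCOA3 fell by 0.41 (adjusted p 3.2e-05) and TBL1XR1, a component of the NCOR complexes, fell by 0.23 (adjusted p 5.5e-05 by edgeR).

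Of 20 genes known to respond to retinoic acid, 12 were tested and 10 called, 6 higher and 4 lower. Their called share was 83.3%, against 52.5% of all genes tested, and their median log2 fold change was 0.16. STRA6 belongs to this group too. PLAT, tissue plasminogen activator, went from 258 and 286 counts in shNC to 832 and 849 in shMETTL14 (log2 fold change 1.64, SE 0.0865, adjusted p 9.8e-13 by edgeR). NEDD9, a scaffold protein of focal adhesions, went from 416 and 395 to 865 and 862 (1.10, SE 0.0756, adjusted p 7.4e-11), and TGM2, tissue transglutaminase, from 23 and 27 to 63 and 57 (1.27, SE 0.280, adjusted p 0.00064). BTG2, an antiproliferative gene, moved the other way, from 1102 and 1040 counts to 692 and 638 (-0.68, SE 0.0655, adjusted p 1.6e-08 by edgeR). HOXB1, HOXA4 and HOXB4, which are direct targets in embryos and in embryonal carcinoma cells, had 0 counts in all libraries, as did CYP26A1. HOXD4 of the same list, named after its values were seen, was detected, with 322 and 352 counts in shNC and 245 and 265 in shMETTL14, and was lower (log2 fold change -0.39, adjusted p 0.00354 by edgeR). RARB, a classic response gene counted here among the members, was lower. The other members were not sorted by whether they respond to retinoic acid, and 3 of the 6 called members were higher.

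Partners of RXR other than RARs included genes called in each direction. Of 11 genes 9 were tested and 7 called, 3 higher and 4 lower (52.5% of all genes tested were called). Of the calls, 4 were changes of at least 2-fold, a call made for 8.79% of all genes tested. PPARG, the fat cell regulator, had 31 and 38 counts in shNC and 121 and 142 in shMETTL14 (log2 fold change 1.94, SE 0.213, adjusted p 1.1e-07 by edgeR), while PPARA, which controls fatty acid oxidation, went from 386 and 365 to 129 and 107 (-1.66, SE 0.120, adjusted p 1.6e-10). NR4A2, an orphan receptor of dopaminergic neurons, rose from 325 and 314 counts to 797 and 842 (1.37, SE 0.0816, adjusted p 7.4e-12 by edgeR), and its paralog NR4A1 rose less (0.27, adjusted p 3.4e-06). VDR, the vitamin D receptor, had 13 and 14 counts against 7 and 1 (-1.72, SE 0.645, adjusted p 0.0299 by edgeR). Its call rests on few counts and was lost in 5 of 10 alternative fits, and the log2 fold change was -0.93 without shMETTL14 replicate 2.

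**Figure D5:**
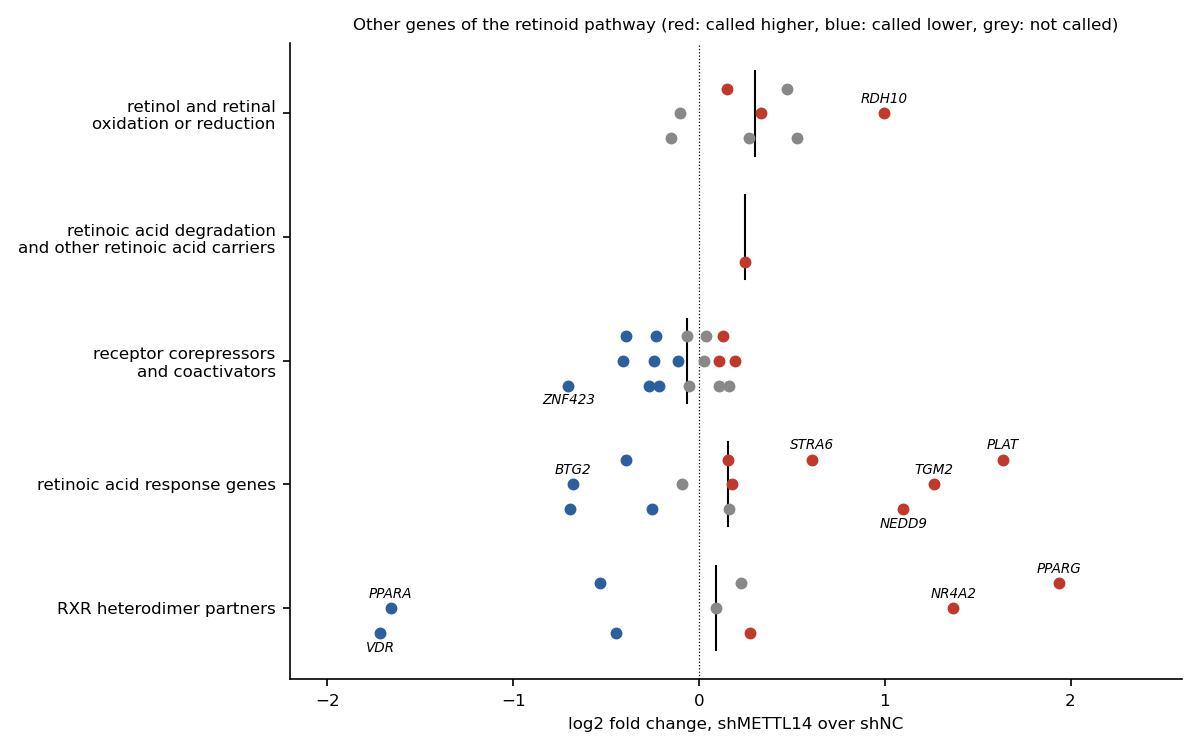
The log2 fold change of shMETTL14 over shNC (horizontal axis) of the tested genes in 5 lists of retinoid pathway genes outside the members, with vertical bars at each list's median. Red points were called higher, blue lower and grey not called, and the vertical scatter within a list has no meaning: the called genes of oxidation and carriage lie right of 0, most called cofactors lie left of 0, and the RXR partners lie furthest apart.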

How the data were processed

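Total RNA gave 4 libraries (2 shNC, 2 shMETTL14), which were sequenced in paired-end mode. Values deposited by the authors were raw counts for each Ensembl gene in 1 table, without normalisation. The submitters' processing notes name HISAT2 2.1.0, StringTie 1.3.6, HTSeq 0.13.5, edgeR and GRCh38, without roles; annotation release and strand setting are not given in the sources used here. Lines that named no gene (between 19.1% and 19.9% of counts) were left out.

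Counts were tested with edgeR 4.0.16 in R 4.3.3 (TMM, filterByExpr with a minimum count of 10 and total of 15, quasi-likelihood F-test, group only), which left 16309 genes. P-values were adjusted by Benjamini-Hochberg over them and called under 0.05. CPM use TMM-scaled library sizes, standard errors come from the F statistic, and 95% intervals assume a normal error. Replicates differed by more than sampling noise (chi-square per gene 2.66 and 2.21). Same-numbered libraries did not deviate together (correlation 0.00), so no block was used. The procedure was tested on simulated data. Few genes were changed there, in random directions, so how calls depend on scaling when many genes change was not probed. Coordinates are from GENCODE 29.

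The members and lists were chosen with earlier results of these data known. Besides members and METTL14, each list's 4 tested genes of smallest adjusted p and those changed at least 2-fold could be named, if called, as could genes at 3 counts or fewer; some of these are not reported here. Counting intervals and floors cover counting error only. Alternatives were RLE, upper quartile or no scaling, other filters, DESeq2 1.42.0, a replicate block and leaving out each library.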

Additional observations from a re-analysis of the deposited data

How the results depend on the processing

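The 6 members called (CRABP1, CRABP2 and RARA higher, RARB, RXRA and RXRB lower) were called in the same direction in all 11 alternative fits, and RARG and DHRS3 were called in none. The log2 fold change of CRABP1 lay between 1.52 and 1.65 over these fits, that of RXRA between -0.92 and -0.76 and that of RARA between 0.19 and 0.33. METTL14 lay between -1.33 and -1.21. With the replicate number as a replicate block, 6 members, 29 pathway genes and 8926 genes in all were called. Each group has the same numbers, but same-numbered libraries did not deviate together, so no pairing was assumed. The labels do not say whether libraries were prepared in pairs. The number of all genes called ran from 6022 (DESeq2) to 8926, and that of pathway genes from 19 (DESeq2) to 29. With upper quartile scaling the median of all genes shifted by -0.07 (log2), less than any called change of a member. Where 1 library was left out, the lone library of its group was assumed to vary like the other group. Paralog shares per length, recomputed with the longest coding transcript after the data were seen, gave RARA 39.3%, RARB 27.6% and RARG 33.1% of RAR RNA in shNC, RXRB 53.0% of RXR RNA, and CRABP1 7.39% of the CRABP2 level. DHRS3 had between 20 and 33 counts per library, and its 95% interval ran from -1.35 to 0.02 (log2).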
